A study of Oryza sativa with 3 samples.

Results

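The rice and monocot miRNA families numbered 1400 to 3999 were described from young rice panicles (Oryza sativa, japonica type), taking every sequence of 20 to 22 nt under such a number except those of miR2118 and miR2275. These were 58 of the 367 mature miRNA sequences in the table, from 37 families. Small RNA had been sequenced from untreated wild type plants and from 2 lodiculeless mutants, ld-1 and ld-2, each genotype giving a single library. The title of the series traces the mutant spikelet to miR172b, and the labels give no allele, plant age, panicle stage or number of pooled plants. Plants grew in a greenhouse or a field plot, and the labels do not say which applied to each library. Values given below in threes are always in the order wild type, ld-1, ld-2. The depths were 116818, 140807 and 66642 miRNA reads, so that ld-2 was counted least precisely. With no replicate, intervals cover counting error only, reads are not independent molecules, and how far plants of 1 genotype vary is unknown.

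A plant miRNA is cut from the stem of a hairpin transcript as a short duplex, and 1 strand of the duplex guides an ARGONAUTE protein to complementary transcripts. Families with high numbers were mostly named from deep sequencing of cereals, and many are young: they are found in few species, come from few loci and are often expressed weakly. A first base of U (written T here) favours loading into AGO1, the main slicing ARGONAUTE. A guide of 22 nt can turn its cleaved target into a source of secondary siRNAs.

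The sequences on which the values below rest follow, 5′ to 3′, with the seed (bases 2 to 8) in capitals. They are the 9 with at least 30 reads summed over the libraries, ordered by their reads. Where a sequence is encoded by several copies, the joined names are those of the table, which does not name precursor arms.
miR1859: tTTCCTATgacgtccattccaa
miR1850: tGGAAAGTtgggagattgggg
miR1425, more abundant sequence: tAGGATTCaatccttgctgct
miR2871a//miR2871b: tATTTTAGtttctatggtcac
miR1425, less abundant sequence: cAGCAAGAactggatcttaat
miR1428e: tAAGATAAtgccatgaatttg
miR2055: tTTCCTTGggaaggtggtttc
miR1846d: tCCCACCGagcagccggatctc
miR1861b//miR1861f//miR1861i//miR1861l: cGATCTTGaggcaggaactgag

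No seed was shared among these 9. Of them, 7 begin with T and 2 with C, 6 are 21 nt long and 3 are 22 nt.

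Among the 58 sequences, expression in the panicle was concentrated in 1 miRNA. miR1859 had 7297, 8795 and 3170 reads, and by reads it ranked 4, 4 and 5 among all 367 sequences of the table. It made up 92.3% of the reads of the 58 sequences in wild type (exact 95% binomial interval 91.6% to 92.8%). The ld-1 share was 92.6% (92.1% to 93.1%) and the ld-2 share 89.5% (88.5% to 90.5%), the latter interval lying below both others. With miR1859, the 58 sequences held 6.77%, 6.74% and 5.31% of all miRNA reads. Without it, the other 57 held 0.525% (0.484% to 0.568%), 0.497% (0.461% to 0.535%) and 0.557% (0.502% to 0.616%), intervals that overlap.

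**Figure D1:**
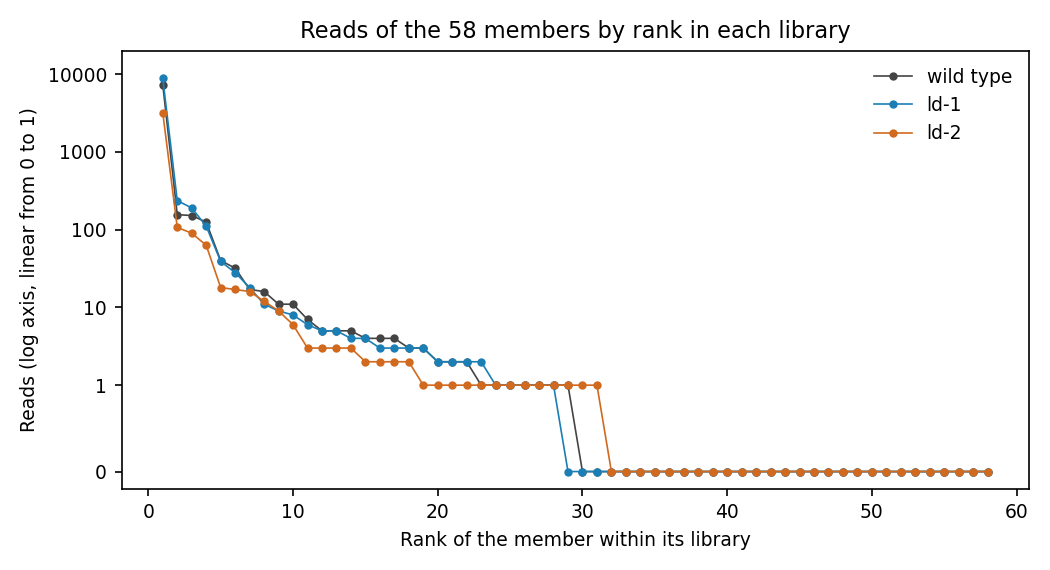
Reads of the 58 sequences (y axis, logarithmic above 1 read and linear from 0 to 1) against their rank in each library (x axis), with 1 point per sequence and 1 line per genotype. The first point, miR1859, stands at 7297, 8795 and 3170 reads, the next at 156, 237 and 107, and 29, 28 and 31 sequences had at least 1 read.

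Most of the young families were rarely read. Of the 58 sequences, 41 had a read in some library, 18 had one in all 3 libraries, 12 in exactly 1 library, and 8 had a single read in all. A read was found for 70.7% of the sequences, against 76.4% of the 309 other sequences in the table, and the minimum of 30 summed reads was met by 15.5% of them against 32.4% of the others. All 39 sequences longer than 22 nt under the same numbers had a read. Among the 58 sequences, the 10 families without any read were miR1423, miR1429, miR1432, miR1848, miR1852, miR1866, miR2090, miR2098, miR2103 and miR2106. A miR1423 sequence of 24 nt, outside the rule, had 14, 7 and 2 reads. Of these families, miR1432 is known in rice for its target OsACOT, an acyl-CoA thioesterase gene that affects grain filling, and miR1848 for its target OsCYP51G3 in sterol synthesis. By 3 counts, 0 reads allows up to 25.1, 23.8 and 41.2 RPM, here read counts brought to a common library size with TMM scaling (trimmed mean of M values).

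At the edges of the rule, the 6 sequences of 20 nt had 1, 11 and 1 reads. The 1 sequence of 23 nt under these numbers, a miR1863b sequence, had 4, 1 and 1 reads, and the 38 of 24 nt had 1807, 2173 and 1351. Both miR2878 sequences are 24 nt long and so fall outside, as do those of miR1871 and miR1873. The nearest families by number in the table, miR1319 below and miR5074 above, had 0 reads. The table held no sequence under miR2105. At the read minimum, miR1861b//miR1861f//miR1861i//miR1861l was just inside with 33 summed reads and the more abundant miR3980a//miR3980b sequence just outside with 26.

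Well expressed, taken as at least 100 RPM in each library, were 6 sequences: miR1859, miR1850, both miR1425 sequences, miR2871a//miR2871b and miR1428e. miR1859 stood at 61076, 69838 and 43510 RPM. miR1850 had 152, 237 and 107 reads, or 1272, 1882 and 1469 RPM. The more abundant miR1425 sequence had 156, 190 and 90 reads, or 1306, 1509 and 1235 RPM. Of the wild type reads left after miR1859, miR1850 took 24.8% (21.4% to 28.4%) and this miR1425 sequence 25.4%, so their order cannot be told at this depth. miR2871a//miR2871b had 125, 111 and 63 reads, or 1046, 881 and 865 RPM, with a wild type share of 20.4% (17.3% to 23.8%), an interval that overlaps that of miR1850. The less abundant miR1425 sequence and miR1428e came next, at 335, 222 and 247 RPM and at 268, 310 and 124 RPM.

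**Figure D2:**
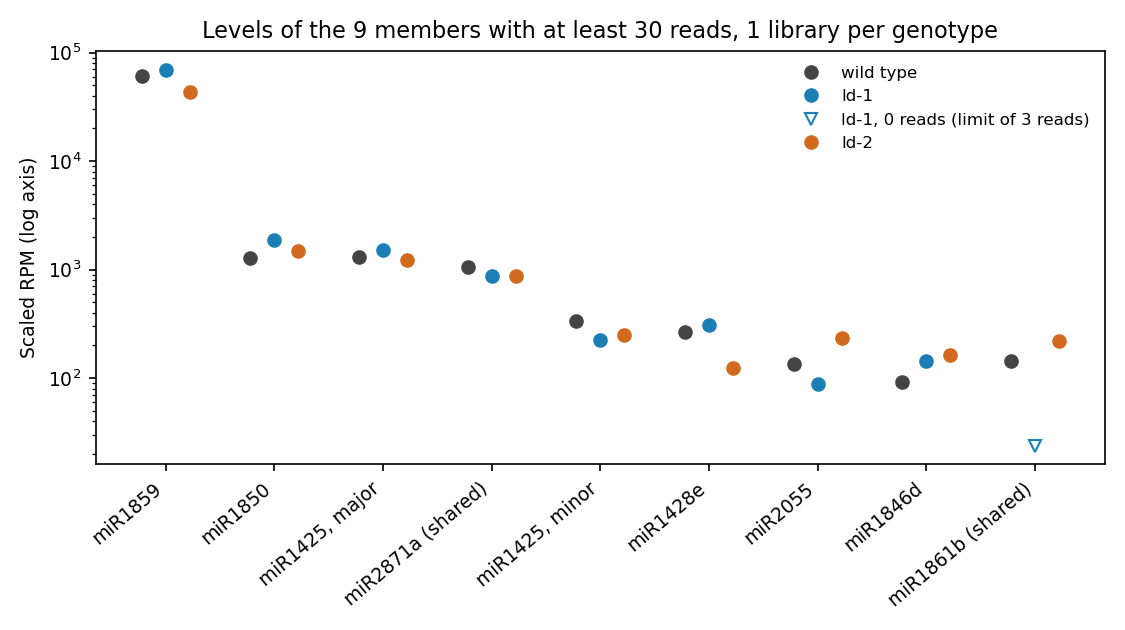
Level of the 9 sequences with at least 30 summed reads in scaled RPM (y axis, logarithmic), with 1 point per library; the open triangle marks a library with 0 reads, drawn at the 23.8 RPM that 3 reads would give. "Major" and "minor" are the more and the less abundant miR1425 sequence, and "shared" marks joined copies. miR1859 lies far above the others in all 3 libraries, and miR1861b//miR1861f//miR1861i//miR1861l was not read in ld-1.

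Next, each mutant was set against wild type. Listing as higher or lower required that the ratio of scaled reads was at least 2-fold and the exact 95% interval excluded a ratio of 1. For ld-1, 0 of the 9 sequences were listed higher, against 6.42% of all 109 sequences with 30 reads or more, and 1 was listed lower, against 3.67%. For ld-2, 0 were listed higher against 21.1%, and 1 lower against 7.34%. With 9 sequences, counts of 0 and 1 in ld-1 are close to those backgrounds. The 109 include 12 sequences of miR2118 and miR2275, which the rule keeps out of the 9. Summed with the rest of these families, they were 3.65-fold above wild type and 4.12-fold above ld-1 in ld-2. The ld-2 background without them was not computed, so 0 against 21.1% is not read as a trait of the 9. The median log2 ratio of the 9 was 0.19 for ld-1 and -0.08 for ld-2, beside -0.06 and 0.03 over all 109. Both medians depended on the processing. That of ld-1 was -7.6e-05 with RPM of all miRNA reads and above 0 with the other scalings. In thinned libraries, a random draw of reads and not a scaling, it was -0.06. That of ld-2 was 0.02 with RPM of all miRNA reads and 0.04 with TMM recomputed without miR2118. Both comparisons share the 1 wild type library.

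miR1859 was 1.40-fold lower in ld-2 than in wild type (log2 -0.49, 95% interval -0.55 to -0.43), under the 2-fold mark. Its shares of all miRNA reads were 6.25% (6.11% to 6.39%), 6.25% (6.12% to 6.37%) and 4.76% (4.60% to 4.92%). The wild type and ld-1 shares thus overlap, and ld-2 lies below both. The log2 ratio of 0.19 in ld-1 (0.15 to 0.24) is not seen in these unscaled shares, and it was 0.20 (0.16 to 0.25) with DESeq2 size factors and 0.098 (0.053 to 0.143) with library sizes without the 5 most abundant sequences. Over the scalings tried the ld-2 ratio ran from -0.69 to -0.37. In a bulk sample, fewer cells that hold a miRNA and less of it per cell cannot be told apart.

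The sequences closest to miR1859 in the table were 7 of miR2118, a family that triggers phased siRNAs in anthers, each 6 edits away. The most abundant of them is shown to let the sequences be compared, again with the seed in capitals.
miR1859: tTTCCTATgacgtccattccaa
miR2118h//miR2118k: tTCCTGATgcctctcattccta

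The seeds differ. Together miR2118 and miR2275 had 1293, 1208 and 2880 reads, in ld-2 3.65-fold above wild type (log2 1.87, 1.77 to 1.96), while miR1859 was lower there. They held 4.32% of the ld-2 reads. Without miR2118 the libraries held 115526, 139599 and 63762 of their 116818, 140807 and 66642 reads. Nearly all reads of the pair were thus of miR2118, and the ratio does not describe miR2275. With TMM recomputed without miR2118, chosen after seeing the data, the log2 ratio of miR1859 in ld-2 was -0.37 (-0.43 to -0.31). Whether the miR2118 and miR1859 differences are linked was not tested, and the labels give no panicle stage.

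miR1850 was the one abundant sequence apart from miR1859 whose interval in ld-1 left out 0. Its 237 reads against 152 in wild type gave a log2 ratio of 0.56 (0.26 to 0.87), or 1.48-fold, under the 2-fold mark. Its log2 ratio lay between 0.37 and 0.68 over the scalings and the thinned libraries, with no interval that included 0. Its share of the reads left after miR1859 was 33.9% in ld-1 (30.4% to 37.5%) against 24.8% in wild type (21.4% to 28.4%), and 28.8% in ld-2 (24.3% to 33.7%). The ld-1 and wild type shares do not overlap, and ld-2 overlaps both. In ld-2, miR1850 was at log2 0.21 (-0.16 to 0.57) against wild type. Against ld-1 it was at -0.36 (-0.70 to -0.02). That interval included 0 with RPM of all miRNA reads (-0.07, -0.41 to 0.27) and with TMM without miR2118 (-0.25, -0.60 to 0.08).

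miR1425 is known in rice for targets among the pentatricopeptide repeat genes related to Rf-1, which restores pollen fertility. Its 2 sequences pair with 4 edits as a duplex with 2-nt 3′ overhangs, as opposite arms of a hairpin do. The more abundant one, beginning with T, took 79.6% (73.3% to 85.0%), 87.2% (82.0% to 91.3%) and 83.3% (74.9% to 89.8%) of miR1425 reads. These intervals overlap. Relative to wild type, ld-1 stood at log2 0.21 (-0.10 to 0.52) and ld-2 at -0.08 (-0.47 to 0.30), the latter above 0 when scaled by all miRNA reads or by TMM without miR2118. The less abundant sequence had 40, 28 and 18 reads, with ratios of -0.59 (-1.34 to 0.14) and -0.44 (-1.33 to 0.40). With RPM of all miRNA reads the ld-1 interval of the less abundant sequence left out 0 (-0.78, -1.54 to -0.05). For the more abundant one, ld-2 over ld-1 was -0.29 (-0.67 to 0.08), and its interval left out 0 with library sizes without the 5 most abundant sequences (-0.40, -0.78 to -0.03). miR2871a//miR2871b stood at -0.25 (-0.63 to 0.13) in ld-1 and at -0.27 (-0.74 to 0.17) in ld-2. Its ld-1 interval left out 0 with RPM of all miRNA reads (-0.44, -0.82 to -0.06), as did its ld-2 interval with library sizes without the 5 most abundant sequences (-0.48, -0.94 to -0.03).

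Of the families with reads in wild type and none in ld-1, miR1861 had the most, and the others were miR1431 with 4, 0 and 1 reads, miR3982 with 2, 0 and 2 and miR2097 with 1, 0 and 0. In miR1861, the 3 sequences are close to each other, and the other 2 are given to show where they differ.
miR1861h//miR1861j: cGGTCTTGaggcaggaactgag
miR1861n: cGATCTTGtggcaggagctgag

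Counted from 1 at the 5′ end, miR1861b//miR1861f//miR1861i//miR1861l differs from miR1861h//miR1861j by A3G, inside the seed, and from miR1861n by A9T and A17G, outside it. The labels do not say how reads were divided among sequences this close. miR1861b//miR1861f//miR1861i//miR1861l had 17, 0 and 16 reads. miR1861h//miR1861j had 2, 0 and 1 reads, and miR1861n had none. Wild type and ld-2 were thus alike in reads at unequal depth, and ld-1, the deepest library, had none in any row of the family. Summed over the family, the reads were 19, 0 and 17. With the 0 reads of ld-1 set to a floor of 3 counts, the sum was 6.68-fold lower there than in wild type. The upper 95% limit of this log2 ratio was -2.30. For the first sequence alone the floor gave 5.97-fold, with a limit of -2.12, and this was the call made in ld-1. When the libraries were thinned to 66642 reads each, the sequence fell under the read minimum, with a value at the floor of -1.50 and an upper limit of -0.93. The family sum in ld-2 was at log2 0.55 against wild type (-0.48 to 1.58).

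miR1428 had fewer reads in ld-2 than in either other library. miR1428e, 1 of its 5 sequences, had 32, 39 and 9 reads. Wild type and ld-1 were close, at a log2 ratio of 0.21 (-0.50 to 0.93), and ld-2 was below both. Against wild type it was 2.17-fold lower in ld-2 (log2 -1.12, -2.37 to -0.02), the 1 sequence listed lower there. Scaled by all miRNA reads it was no longer listed (-1.02, -2.27 to 0.08), nor with TMM recomputed without miR2118 (-0.99), nor at a 99% interval. Its relatives are shown because they share its seed.
miR1428b//miR1428c//miR1428d: tAAGATAAtgccatgaattcg
miR1428a: tAAGATAAagccgtgaatttg

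From miR1428e, miR1428b//miR1428c//miR1428d differs by T20C and had 0 reads in each library. miR1428a differs by T9A and A13G and had 5 reads in wild type and 0 in both mutants. At 5 against 0 reads, intervals of the miR1428a ratio included 0 in ld-1 and in ld-2. The reads of the 3 sequences with this seed were 37, 39 and 9. Summed over all 5 sequences, miR1428 was 2.51-fold lower in ld-2 than in wild type (log2 -1.33, -2.56 to -0.25).

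The mutants were then set against each other. Of the 9 sequences, 2 stood in the ld-2 library above ld-1 by the listing rule, against 19.3% of the 109, and 1 lower, against 5.50%. The higher ones were miR1861b//miR1861f//miR1861i//miR1861l and miR2055. With 0 reads set to the same floor the first was 9.22-fold higher, with a lower 95% limit of 2.74 for the log2 ratio. In thinned libraries the first fell under the read minimum and was not listed, with a log2 value at the floor of 2.11 in place of 3.20. miR2055 had 16, 11 and 17 reads, and ld-2 was 2.67-fold above ld-1 (log2 1.42, 0.24 to 2.66), a listing lost in thinned libraries (0.78), at a 99% interval and at a log2 threshold of 1.5. Against wild type both of its intervals held 0 (-0.62, -1.87 to 0.58, for ld-1 and 0.80, -0.27 to 1.88, for ld-2), so wild type cannot be told from either mutant. The lower one was miR1428e, 2.51-fold (log2 -1.33, -2.56 to -0.26), which was lost when scaled by all miRNA reads (-1.04) or at a 99% interval. miR1859 was 1.61-fold lower in ld-2 than in ld-1 (log2 -0.68, -0.74 to -0.62). Over the scalings tried this ratio ran from -0.79 to -0.39, beyond that interval on both sides.

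**Figure D3:**
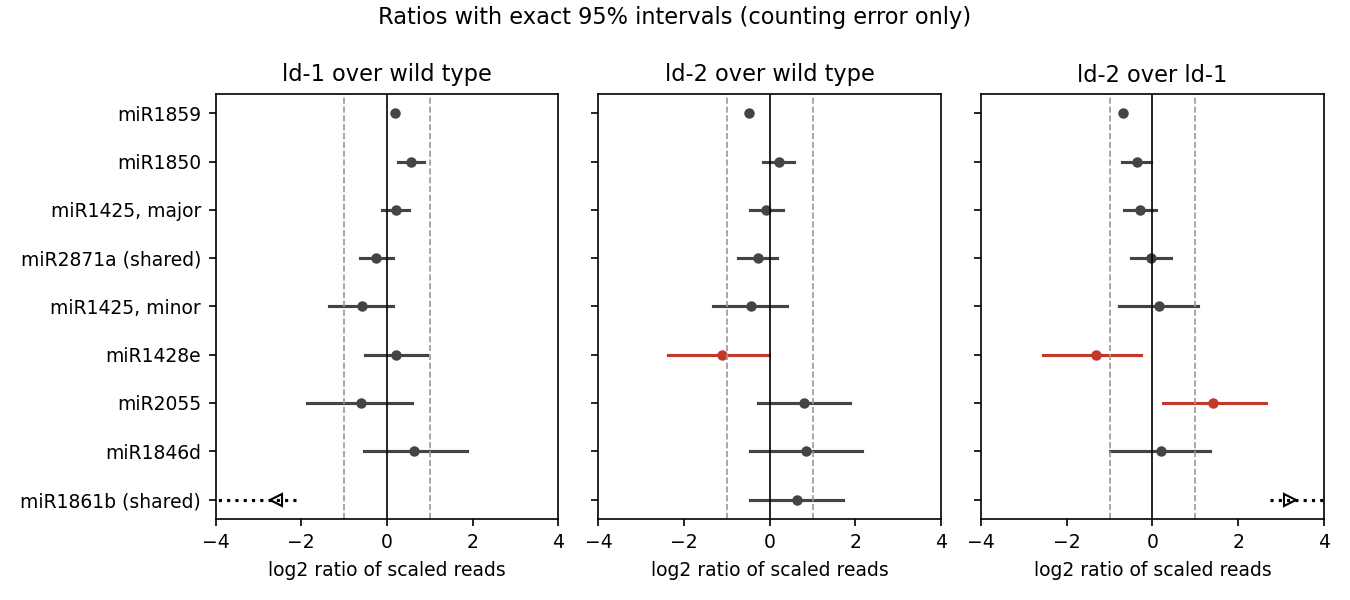
Log2 ratios of scaled reads (x axis) of the 9 sequences (y axis) in ld-1 over wild type, ld-2 over wild type and ld-2 over ld-1, with bars for exact 95% intervals of counting error and dashed lines at 2-fold. Red marks listed sequences, except those set against a library with 0 reads, which are drawn in black though listed (miR1861b//miR1861f//miR1861i//miR1861l). Their open triangles stand at the value with 0 set to 3 counts, not at the interval limit. A dotted line covers the range their interval leaves. miR1859 has the narrowest bars, at 0.19, -0.49 and -0.68, and the rarer sequences have bars that mostly cross 0.

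Summed over all 58 sequences, ld-1 stood at a log2 ratio of 0.19 to wild type (0.14 to 0.23), or -0.00597 when scaled by all miRNA reads, and ld-2 at -0.45 (-0.50 to -0.39). Without miR1859 the sums were 613, 700 and 371 reads, with log2 ratios of 0.12 (-0.04 to 0.27) and -0.01 (-0.20 to 0.18). The summed difference in ld-2 was therefore that of miR1859.

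The reads outside miR1859 were mostly 21 nt long and began with T. Sequences of 21 nt took 94.0%, 95.1% and 91.1% of them. Those with a first T took 84.3% (81.2% to 87.1%), 90.7% (88.3% to 92.8%) and 84.4% (80.3% to 87.9%), highest in ld-1. Those with a first C took 11.7% (9.30% to 14.6%), 6.57% (4.85% to 8.67%) and 11.3% (8.28% to 15.0%). The C share in ld-1 lies below the wild type interval, and of the reads beginning with C the less abundant miR1425 sequence had 40, 28 and 18 and miR1861 19, 0 and 17. Among the 58 sequences themselves, 29 begin with T and 23 of these had a read, against 8 of 13 with C, 8 of 12 with A and 2 of 4 with G. The median GC content was 47.6% in the 41 sequences with a read and 52.4% in the 17 without.

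The rarer sequences add few reads. miR1846d had 11, 18 and 12 reads, and its ratios to wild type were 0.63 (-0.53 to 1.86) for ld-1 and 0.84 (-0.47 to 2.16) for ld-2 on the log2 scale. The 5 miR1846 sequences summed to 18, 30 and 17. The more abundant miR3980a//miR3980b sequence had 11, 9 and 6 reads and its partner 5, 3 and 0. These 2 pair as a duplex with 2 edits, and their summed ratio was -0.49 (-1.70 to 0.68) for ld-1 and -0.70 (-2.34 to 0.73) for ld-2. The 49 sequences under the minimum, of which 32 had a read, held 64, 66 and 39 reads, with ratios of the sums of -0.03 (-0.55 to 0.49) and -0.001 (-0.61 to 0.60). Single families stood out by a few reads, named here after their values were seen. miR3979 had 0, 6 and 0 reads over its 2 sequences, and the more abundant miR1857 sequence had 1, 8 and 2, a log2 ratio of 2.92 in ld-1 whose interval ran from 0.03 to 8.40.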

How the data were processed

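The authors deposited raw read counts per mature miRNA sequence, per the file headers. Trimming, mapping, how reads were counted and which miRNA release was used: not given in the sources used here. Per the labels' protocols, gel-purified RNA of 20 to 30 nt was made into libraries with the NEXTFlex kit v3 and sequenced on a MiSeq. TMM factors were computed with edgeR 4.0.16 (R 4.3.3) on the sequences with at least 30 summed reads of the whole table and were 1.02, 0.894 and 1.09 for wild type, ld-1 and ld-2, so 1 read was worth 8.37, 7.94 and 13.7 RPM. Ratios have exact conditional binomial (Clopper-Pearson) intervals and shares exact Clopper-Pearson intervals, from Python 3.11.15 with scipy 1.17.1. A count of 0 was set to 3 counts for ratios, which are then values at that floor and not the limits of their intervals. No p-value was computed, as each genotype had 1 library. Named were all sequences with at least 30 summed reads, all listed ones and those with at least 10 reads in a library. Families with a role known in rice were also named (miR1425, miR1432, miR1848, miR2105, miR1871 and miR1873). Any others were chosen after their values were seen. Duplexes were called from at most 7 edits between the paired parts. Members and lists were chosen with earlier results of these data known. DESeq2 1.42.0 size factors and the other alternatives are given in the closing section.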

Additional observations from a re-analysis of the deposited data

Results flagged for a closer look

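A pair of sequences was listed in one mutant while its ratio had the opposite sign in the other. For miR1861b//miR1861f//miR1861i//miR1861l the log2 ratio of ld-2 over ld-1 was 3.20 with 0 set to 3 counts, from 16 and 0 reads (lower 95% limit 2.74). Its ratios to wild type were -2.58 by the same floor for ld-1 (upper limit -2.12) and 0.63 (-0.45 to 1.70) for ld-2. For miR1428e the log2 ratio of ld-2 over ld-1 was -1.33, from 9 and 39 reads. Its ratios to wild type were -1.12 in ld-2 and 0.21 in ld-1, the latter at -0.06 in thinned libraries. With single libraries, neither could be tested between plants.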

How the results depend on the processing

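No paired analysis was possible because each genotype had 1 library. With RPM of all miRNA reads the median of the 109 sequences moved by -0.19 (ld-1), 0.10 (ld-2) and 0.29 (ld-2 over ld-1). Library sizes without the 5 most abundant sequences shifted it by -0.10, -0.21 and -0.11, and TMM without miR2118 by 0.02, 0.12 and 0.11. Of 135 single values under other scalings or thinning, 124 lay inside their main 95% interval, which is wide for the rarer sequences. The 11 outside were of miR1859 under other scalings and of miR1861b//miR1861f//miR1861i//miR1861l in thinned libraries. In all, 8 values changed sign, among them miR1859 in ld-1 (-7.6e-05 with RPM of all miRNA reads). No listed value changed sign. In ld-1 the 1 lower call became 0 at a minimum of 100 reads and in thinned libraries, where the sequence was no longer tested, and 2 with sequences of any length. The 0 higher calls in ld-1 became 1 with no minimum (miR1857) and 1 with any length. In ld-2 the 1 lower call became 0 with RPM of all miRNA reads, TMM without miR2118, a minimum of 100, a log2 threshold of 1.5 or a 99% interval, and the 0 higher calls became 1 with any length. Between the mutants the 2 higher calls became 0 at a minimum of 100 or in thinned libraries, and 1 at a log2 threshold of 1.5 or a 99% interval. The 1 lower call became 0 with RPM of all miRNA reads, a minimum of 100, a log2 threshold of 1.5 or a 99% interval, and 2 at 1.5-fold. The summed log2 ratio of 0.19 in ld-1 moved to -0.00597 with RPM of all miRNA reads, 0.092 without the 5 most abundant and 0.12 without miR1859. That of -0.45 in ld-2 moved to -0.35, -0.65 and -0.011 in the same order, to -0.28 with any length and to -0.32 with TMM without miR2118. Between the mutants -0.63 moved to -0.34, -0.74 and -0.13, to -0.46 with any length, to -0.53 with TMM without miR2118 and to -0.70 with DESeq2 size factors. With sequences of any length the share of all reads was 8.32%, 8.29% and 7.34% in the order wild type, ld-1, ld-2, and that of miR1859 within them 75.1%, 75.4% and 64.8%. Without the 5 most abundant sequences, of which miR1859 is 1, the share was 2.44%, 2.47% and 2.10%. Other causes of these moves were not tested. Depth limits the sequences under 100 summed reads, among them miR1428e, and their intervals span several-fold.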
